A study of Homo sapiens with 6 samples.

Results

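MHC class I molecules show peptides from inside the cell to CD8 T cells and natural killer cells, and 9 genes of this pathway are described here in A549 cells, a human lung adenocarcinoma line. The genes are a list of pathway members, drawn up with earlier results of these data known and matched by name: the class I heavy chains HLA-B, HLA-C, HLA-E and HLA-F, the light chain B2M, the peptide transporter subunits TAP1 and TAP2, and the immunoproteasome subunits PSMB8 and PSMB9. All 9 were found by Entrez gene ID among the 20824 genes listed in any file, and all 9 passed the filter on low counts. The cells carried either a scrambled control shRNA, labelled as the wild-type control, or an shRNA against C19orf12, which encodes a membrane protein of mitochondria and the endoplasmic reticulum. Each of the 2 groups had 3 polyA-selected RNA-seq libraries, and the knockdown libraries share the shRNA name shC19orf12-1. The comparison asked how expression differs when C19orf12 is lowered.

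In this pathway the proteasome cuts proteins into peptides, and cells under interferon replace its catalytic subunits by the immunoproteasome subunits PSMB8, PSMB9 and PSMB10. The TAP1 and TAP2 transporter carries the peptides into the endoplasmic reticulum, where a heavy chain paired with B2M is loaded and then moves to the cell surface. Transcription of the class I genes depends on an upstream enhancer bound by NF-kappaB, an interferon response element bound by IRF proteins, and a module bound by RFX, CREB or ATF and NF-Y proteins with the coactivator NLRC5.

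The total of estimated counts per library lay between 10229890 and 10647587. C19orf12, the targeted gene, measured 42.5, 41.1 and 63.3 CPM (TMM-scaled counts relative to the library total) in the scramble libraries, in the order of replicates 1 to 3, and 24.2, 26.4 and 25.2 CPM with the knockdown, so 51.6% of the scramble mean was left. Its log2 fold change of -0.95 passed edgeR's test (adjusted p = 0.015) but missed the threshold when knockdown replicate 1, 2 or 3 was dropped (0.0908, 0.0755 and 0.0879), and it was -0.73 without scramble replicate 3. Scramble replicate 3 stood apart: its log2 CPM correlated at 0.952 and 0.953 across genes with the other scramble libraries, against 0.991 between those, and its counts differed from theirs by chi-square values of 73.9 and 74.9 per degree of freedom, against 1.61 to 1.95 for the other pairs within a group. Each member is therefore given with and without this library. Replicates varied by a coefficient of 18.9% over the 6 libraries and of 2.97% once it was dropped, and nothing in the labels says that replicates were separate cultures, so the spread that p-values measure may be technical. All 5 markers of epithelial cells were listed, and their summed level was 3197 to 4671 CPM in scramble and 10217 to 10407 CPM in knockdown libraries. Of the 5, 3 (KRT8, KRT18 and KRT19) were called higher. KRT19 was low, at 0, 0.0928 and 0.484 CPM in scramble and 2.1, 2.7 and 1.99 CPM in knockdown libraries. EPCAM lay between 0.775 and 2.6 CPM in all libraries. Of 10 leukocyte markers 5 were listed in no file, and the sum of the other 5 lay between 3.34 and 4.26 CPM in scramble and 3.38 and 4.3 CPM in knockdown libraries. The 5 fibroblast markers summed to 37.4 to 47.7 CPM in scramble and 24.0 to 26.3 CPM in knockdown libraries, mostly from COL1A1, which was called lower (log2 fold change -0.75, adjusted p = 0.0191 by edgeR), and 4 of 5 endothelial markers in the files summed to 2.81 to 4.18 and 3.40 to 4.07 CPM. The part of these markers in the results was not tested.

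The regulatory sequence before the start of 5 members is shown because HLA-B, HLA-C and HLA-F were called lower and B2M, whose protein pairs with heavy chains, was not, with TAP1 as a further gene of the pathway. HLA-E is not printed. These are the 250 bases before the transcription start in RefSeq's annotation of GRCh38.p14, in the direction of the gene, for HLA-B at chr6:31357180-31357429 on the minus strand, HLA-C at chr6:31272093-31272342 on the minus strand, HLA-F at chr6:29723184-29723433 on the plus strand, B2M at chr15:44711267-44711516 on the plus strand and TAP1 at chr6:32853705-32853954 on the minus strand. They are reference sequence, not that of the A549 alleles. Capitals mark matches on either strand to the interferon-stimulated response element (ISRE, GAAA, any 2 bases and GAAA again), the interferon gamma-activated site (GAS, TTCNNNGAA), the NF-kappaB consensus, the CCAAT box (CCAAT) and the half-site of the cyclic AMP response element (TGACG).
HLA-B: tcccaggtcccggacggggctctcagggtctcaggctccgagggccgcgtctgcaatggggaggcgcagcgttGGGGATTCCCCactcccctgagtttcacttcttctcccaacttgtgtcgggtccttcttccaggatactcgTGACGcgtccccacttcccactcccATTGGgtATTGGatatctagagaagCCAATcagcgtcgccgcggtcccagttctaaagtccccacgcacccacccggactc
HLA-C: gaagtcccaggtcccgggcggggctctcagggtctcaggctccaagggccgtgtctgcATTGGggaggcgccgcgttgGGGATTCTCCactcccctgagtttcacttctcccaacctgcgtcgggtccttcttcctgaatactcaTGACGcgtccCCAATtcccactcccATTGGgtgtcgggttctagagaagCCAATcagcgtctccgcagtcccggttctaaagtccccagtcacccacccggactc
HLA-F: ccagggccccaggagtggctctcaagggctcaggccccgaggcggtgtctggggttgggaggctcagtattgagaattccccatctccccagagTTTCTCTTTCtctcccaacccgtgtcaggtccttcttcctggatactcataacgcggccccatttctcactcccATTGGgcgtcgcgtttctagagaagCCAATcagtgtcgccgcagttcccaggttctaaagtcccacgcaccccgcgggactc
B2M: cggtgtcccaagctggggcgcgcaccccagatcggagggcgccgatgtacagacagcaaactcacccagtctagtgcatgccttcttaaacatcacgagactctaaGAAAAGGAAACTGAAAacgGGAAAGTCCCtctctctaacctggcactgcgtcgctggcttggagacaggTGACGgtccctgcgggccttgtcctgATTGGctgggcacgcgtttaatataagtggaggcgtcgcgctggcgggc
TAP1: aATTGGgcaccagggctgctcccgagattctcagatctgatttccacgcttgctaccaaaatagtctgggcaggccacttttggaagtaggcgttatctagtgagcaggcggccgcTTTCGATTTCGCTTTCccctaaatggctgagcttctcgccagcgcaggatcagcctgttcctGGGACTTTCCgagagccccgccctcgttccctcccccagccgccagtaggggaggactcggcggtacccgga

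HLA-B and HLA-C share their kinds of marked letters: an NF-kappaB match, a TGACG half-site and CCAAT boxes in either orientation. The half-site begins 106 bases before the start in HLA-B and 105 in HLA-C, and the CCAAT box nearest the start begins at 56 in both. The NF-kappaB letters of HLA-B hold 2 overlapping matches, which begin 177 and 176 bases before the start. HLA-F has CCAAT boxes at 57 and 82 bases and an ISRE match at 156, with no match to the NF-kappaB consensus or the half-site in this window. B2M has an NF-kappaB match at 125 bases, a half-site at 75 and a CCAAT box at 49. It also has 2 overlapping ISRE matches at 138 and 144 bases, a kind not marked in HLA-B and HLA-C. TAP1 likewise has 2 overlapping ISRE matches, at 128 and 134 bases, and an NF-kappaB match at 72, in the window of the more upstream of its 2 listed starts. TAP2, not printed, has an ISRE match at 58 bases and a half-site at 35, and the 2 windows of PSMB8 have a GAS match at 65 and a half-site at 69. PSMB9 has a half-site at 144 bases and a CCAAT box at 243. Of 34943 windows of this length before RefSeq starts, 3.02% hold an ISRE match, 6.56% a GAS match, 5.2% an NF-kappaB match, 32% a CCAAT box and 21.2% a TGACG half-site. A match is a description of letters, not a bound site. Only exact matches were marked, so HLA-B and HLA-C may hold an interferon response element that departs from the ISRE pattern.

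Of the 9 members 5 fell in the knockdown libraries and 0 rose by edgeR's quasi-likelihood test with Benjamini-Hochberg adjustment over all 14812 genes, where 11.5% of all genes were called, 5.89% higher and 5.64% lower. The 5 were the heavy chains HLA-B, HLA-C, HLA-E and HLA-F and the proteasome subunit PSMB8, while B2M, TAP1, TAP2 and PSMB9 were not called. No member was called higher, and none was higher at an unadjusted p under 0.05, with edgeR, DESeq2 or limma-voom. The median log2 fold change of the members was -0.68, against 0.02 over all genes tested. Without scramble replicate 3, 6 members fell and 0 rose, TAP1 being the added gene, and the median was -0.47. In that setting 49.5% of all genes were called and 23.8% were called lower, so small differences passed. In bulk RNA, fewer cells with a transcript and less of it per cell cannot be told apart.

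Calls rested on all 3 knockdown libraries being present. Without knockdown replicate 1 or 3 only PSMB8 of the 9 was called by edgeR, and without knockdown replicate 2 the count was 0, with 5 members at an unadjusted p under 0.05 in each case. Calls were fewer over all genes too, at 5.09%, 4.93% and 4.85% without knockdown replicate 1, 2 and 3. Without scramble replicate 1 the count was 3 (HLA-B, HLA-C and PSMB8) and without scramble replicate 2 it was also 3 (HLA-B, HLA-E and PSMB8), where 8.95% and 8.35% of all genes were called. CPM of the groups did not overlap for 6 members, all lower in the knockdown libraries, where 37% of all genes tested did not overlap, 18.4% being higher and 18.6% lower.

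**Figure D1:**
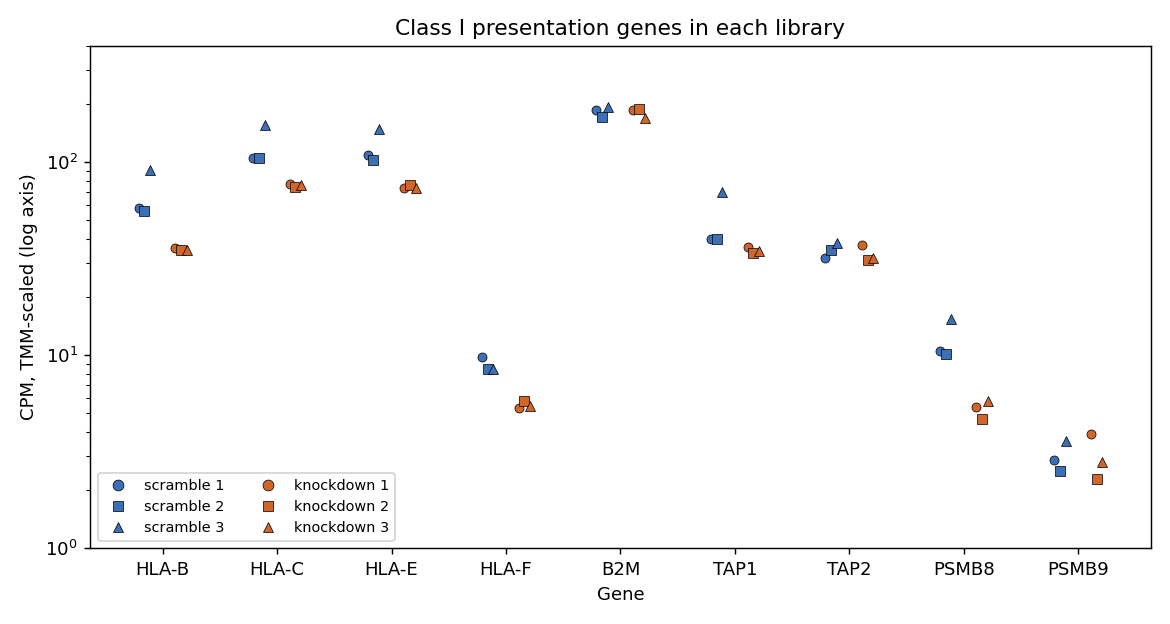
CPM of the 9 members on a log axis, with 1 point per library, scramble in blue and knockdown in orange, and the replicate number as the symbol. The knockdown points lie below all scramble points for the 4 heavy chains, TAP1 and PSMB8, and scramble replicate 3 is the highest library for HLA-B, HLA-C, HLA-E, B2M, TAP1, TAP2 and PSMB8.

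The classical heavy chain HLA-B, which presents peptides to CD8 T cells, measured 57.8, 56.0 and 91.6 CPM in the scramble libraries, listed in the order of their replicate numbers, and 36.0, 35.1 and 35.1 CPM in the knockdown libraries. The knockdown libraries were close together, and each was lower than each scramble library. By edgeR HLA-B fell by 0.95 on the log2 scale (SE 0.21, adjusted p = 0.0195, n = 3 each), and 51.7% of the scramble mean was left. Without scramble replicate 3 it was -0.68 (SE 0.06, adjusted p = 8.29e-09 by edgeR), with 62.3% left. Dropping knockdown replicate 1, 2 or 3 ended the call, with adjusted p-values of 0.093, 0.0983 and 0.103 by edgeR.

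HLA-C, the other classical chain among the members and a ligand of killer cell immunoglobulin-like receptors, measured 105, 105 and 155 CPM in the scramble and 77.1, 74.7 and 76.1 CPM in the knockdown libraries. The groups did not overlap, and scramble replicate 3 was again the highest. By edgeR HLA-C fell by 0.68 on the log2 scale (SE 0.19, adjusted p = 0.0451). Leaving scramble replicate 3 out gave -0.47 (SE 0.05, edgeR adjusted p = 6.19e-08). This call lay near the threshold: dropping scramble replicate 2 ended it by edgeR (adjusted p = 0.0536), and so did dropping knockdown replicate 1, 2 or 3 (0.176, 0.192 and 0.187), and by limma-voom the adjusted p was 0.0547.

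HLA-E, a non-classical chain that presents leader peptides of other class I chains to the natural killer receptor CD94-NKG2A, measured 108, 103 and 148 CPM in the scramble and 73.8, 76.1 and 73.1 CPM in the knockdown libraries. Each knockdown library was lower than each scramble library. The difference was -0.69 on the log2 scale from 6 libraries (SE 0.18, edgeR adjusted p = 0.0348) and -0.51 when scramble replicate 3 was dropped (SE 0.05, edgeR adjusted p = 2.98e-08). Dropping scramble replicate 1 ended the edgeR call (adjusted p = 0.0517), and so did dropping knockdown replicate 1, 2 or 3 (0.164, 0.15 and 0.172).

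HLA-F, a non-classical chain with low surface expression in most cells, was the heavy chain with the lowest level, at 9.75, 8.45 and 8.52 CPM in the scramble and 5.3, 5.79 and 5.46 CPM in the knockdown libraries. In this gene scramble replicate 3 lay within the range of the other scramble libraries. HLA-F fell by 0.69 on the log2 scale in the edgeR fit of 6 libraries (SE 0.17, adjusted p = 0.0317) and stood at -0.72 in the fit of 5 that dropped scramble replicate 3 (SE 0.16, adjusted p = 0.000662). It missed edgeR's threshold without scramble replicate 1 or 2 (adjusted p = 0.103 and 0.0668) or knockdown replicate 1, 2 or 3 (0.164, 0.124 and 0.154), and the adjusted p was 0.0696 by DESeq2.

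Counts of all 4 heavy chains were fractional in each of the 6 libraries, whereas those of B2M, PSMB8 and PSMB9 were whole numbers in all 6. RSEM divides reads that match several transcripts, so the split of reads between heavy chain genes is an estimate. The alleles of A549 may differ from the reference transcripts, and their part in the values was not tested.

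B2M, the light chain shared by all class I molecules, did not differ detectably. It measured 187, 171 and 193 CPM in the scramble and 186, 188 and 168 CPM in the knockdown libraries, and the groups overlapped. On the log2 scale the difference was -0.02 (95% interval -0.34 to 0.30, edgeR adjusted p = 0.95). Leaving scramble replicate 3 out made it 0.02 (-0.09 to 0.12, edgeR adjusted p = 0.82). The lower bounds are above the fold changes measured for the heavy chains in the same fit. With all 6 libraries, however, the intervals of HLA-C, HLA-E and HLA-F reached up to -0.26, -0.29 and -0.30 and overlapped that of B2M. The interval of HLA-B, up to -0.47, did not. Without scramble replicate 3 the nearest was that of HLA-C, up to -0.37, below the interval of B2M.

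**Figure D2:**
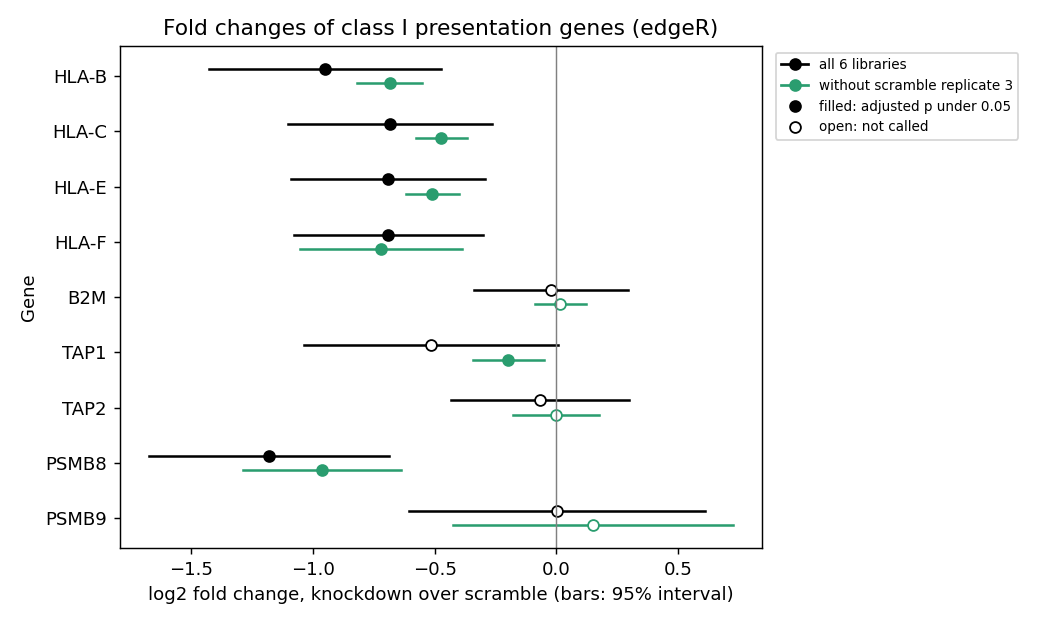
Log2 fold changes of the 9 members by edgeR, knockdown over scramble, with 95% intervals, for all 6 libraries in black and without scramble replicate 3 in green; filled points have an adjusted p under 0.05. HLA-B, HLA-C, HLA-E, HLA-F and PSMB8 lie below 0 in both fits, TAP1 passes only without scramble replicate 3, and B2M, TAP2 and PSMB9 have intervals that include 0.

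Of the peptide transporter subunits TAP1 and TAP2, TAP1 had groups that did not overlap, and the difference between both genes was not tested. TAP1 measured 40.2, 40.2 and 70.0 CPM in the scramble and 36.5, 34.0 and 34.8 CPM in the knockdown libraries, without overlap. Much of its difference lay in scramble replicate 3: on the log2 scale it was -0.52 from 6 libraries (SE 0.23, edgeR adjusted p = 0.203) and -0.20 when that library was dropped (SE 0.07, edgeR adjusted p = 0.0236). TAP2 measured 31.8, 35.0 and 38.2 CPM in the scramble and 37.2, 31.1 and 31.8 CPM in the knockdown libraries, and the groups overlapped. Its log2 fold change was -0.07 (95% interval -0.43 to 0.30, adjusted p = 0.84 by edgeR), and the interval without scramble replicate 3 was -0.18 to 0.17. Both genes have more than 1 listed transcript, and their counts were fractional in all 6 libraries.

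PSMB8, the chymotrypsin-like subunit of the immunoproteasome, had the lowest fold change of the 9 members with all 6 libraries. It measured 10.5, 10.1 and 15.4 CPM in the scramble and 5.4, 4.69 and 5.76 CPM in the knockdown libraries, so that 44% of the scramble mean was left. PSMB8 fell by 1.18 on the log2 scale (SE 0.22, edgeR adjusted p = 0.00833), and dropping scramble replicate 3 gave -0.96 (SE 0.16, edgeR adjusted p = 2.21e-05). Dropping knockdown replicate 2 ended the call (edgeR adjusted p = 0.0561). An antisense gene, PSMB8-AS1, lies next to PSMB8 and was listed at 7.25, 8.82 and 11.6 CPM in the scramble and 7.6, 5.19 and 7.75 CPM in the knockdown libraries (log2 fold change -0.43, adjusted p = 0.309 by edgeR). The library kit named in the labels does not mark strand, so reads from any overlapping parts of these genes cannot be told apart. The counts of PSMB8 were whole numbers in all 6 libraries, and the part of such reads in its values was not tested.

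PSMB9, the immunoproteasome subunit that replaces PSMB6, was at 2.88, 2.51 and 3.58 CPM in the scramble and 3.9, 2.3 and 2.78 CPM in the knockdown libraries. The groups overlapped, and at this low level the 95% interval of the log2 fold change was wide, from -0.61 to 0.61 (adjusted p = 0.995 by edgeR). On chromosome 6 the RefSeq order is TAP2, PSMB8, PSMB8-AS1, TAP1 and PSMB9, so PSMB8, which fell in both fits, lies between TAP2, not called in either, and TAP1, called in 1. The heavy chain genes are on chromosome 6 as well, and B2M is on chromosome 15.

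Levels of different genes were set side by side in FPKM, which the authors scaled for transcript length and depth. In the scramble libraries the order was B2M (193 ± 8.06 FPKM, SD, n = 3), HLA-C (78.3 ± 14.6), HLA-E (45.3 ± 7.18), HLA-B (42.9 ± 10.4), TAP1 (17.8 ± 5.14), PSMB8 (10.4 ± 1.68), TAP2 (9.3 ± 0.731), HLA-F (5.8 ± 0.584) and PSMB9 (2.95 ± 0.411). The ranges of HLA-E and HLA-B overlapped, and so did those of PSMB8 and TAP2. In the knockdown libraries B2M (183 ± 10.5 FPKM) was again the highest, followed by HLA-C (47.1 ± 0.782), and TAP1 stood at 12.1 ± 0.64. There HLA-E (27.1 ± 0.531 FPKM) was above HLA-B (21.5 ± 0.292) without overlap, and PSMB8 (4.51 ± 0.613) was below TAP2 (8.4 ± 0.88) without overlap, while HLA-F (3.42 ± 0.135) and PSMB9 (2.84 ± 0.778) overlapped.

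The summed FPKM of HLA-B, HLA-C, HLA-E and HLA-F was 155, 152 and 209 in the scramble and 99.7, 98.8 and 98.8 in the knockdown libraries. The ratio of B2M to this sum was 1.29, 1.21 and 0.925 in scramble replicates 1, 2 and 3 and 1.88, 1.92 and 1.73 in the knockdown replicates. The groups did not overlap, and B2M was higher relative to these heavy chains in the knockdown libraries by 0.70 on the log2 scale, or 0.56 without scramble replicate 3. The exact 2-sided permutation p was 0.1, the smallest that 3 libraries against 3 allow, and 0.167 after Benjamini-Hochberg adjustment over the 5 ratios computed. HLA-B was also lower relative to HLA-C, with ratios of 0.536, 0.519 and 0.577 in the scramble and 0.456, 0.46 and 0.45 in the knockdown libraries (exact permutation p = 0.1, adjusted 0.167).

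Immunoproteasome subunits were compared with the constitutive subunits whose places they take. PSMB8 stood at 0.085, 0.0902 and 0.0842 of the FPKM of PSMB5 in the scramble and at 0.043, 0.0322 and 0.0459 in the knockdown libraries, and in this ratio scramble replicate 3 did not stand apart. The difference was -1.11 on the log2 scale, and -1.13 without scramble replicate 3 (exact permutation p = 0.1, adjusted 0.167). The ratios of PSMB9 to PSMB6 (means 0.0209 ± 0.00221 and 0.0184 ± 0.00524, SD, n = 3) and of PSMB10 to PSMB7 (0.103 ± 0.0227 and 0.0874 ± 0.00599) overlapped between groups, with exact permutation p-values of 0.5 and 0.2.

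**Figure D3:**
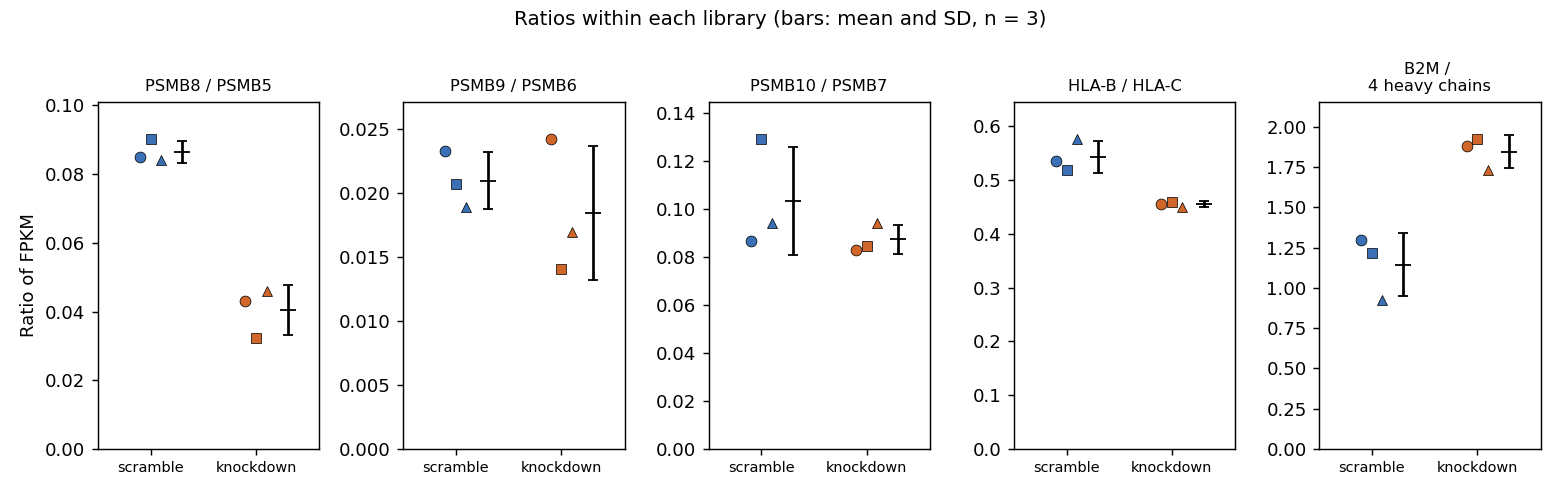
Ratios of FPKM within each library, with scramble in blue, knockdown in orange, the replicate number as the symbol (1 circle, 2 square, 3 triangle), and mean and SD as black bars (n = 3 each); each axis starts at 0. PSMB8 over PSMB5 and HLA-B over HLA-C are lower, and B2M over the 4 heavy chains is higher, in all knockdown libraries than in any scramble library, while the other 2 ratios overlap.

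The position of scramble replicate 3 moved with the GC content of transcripts. Relative to the mean of scramble replicates 1 and 2, the median gene was at -1.03 on the log2 scale in the lowest of 10 GC bins of equal size and at 0.51 in the highest. TAP1 (57.5% GC) was at 0.80, HLA-B (59% GC) at 0.69, PSMB8 (55.1% GC) at 0.57, HLA-C (60.2% GC) at 0.56 and HLA-E (54.8% GC) at 0.49, where the medians of their bins were 0.44 to 0.51. HLA-F (58.8% GC) was at -0.09, below the median of its bin. B2M has the lowest GC content of the members, 39.1%, and was at 0.11, where the median of its bin was -1.03. With GC content and length corrected in each library, a setting added after seeing the data, B2M was at -0.28 (adjusted p = 0.27 by edgeR), HLA-B at -0.82, HLA-C at -0.56, HLA-E at -0.62 and PSMB8 at -1.08. In that fit TAP1 was called (-0.41, adjusted p = 0.025) and HLA-F was not (-0.61, adjusted p = 0.0502). It called 4858 of 14231 genes tested, against 1708 of 14812 without the correction, so smaller differences passed.

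**Figure D4:**
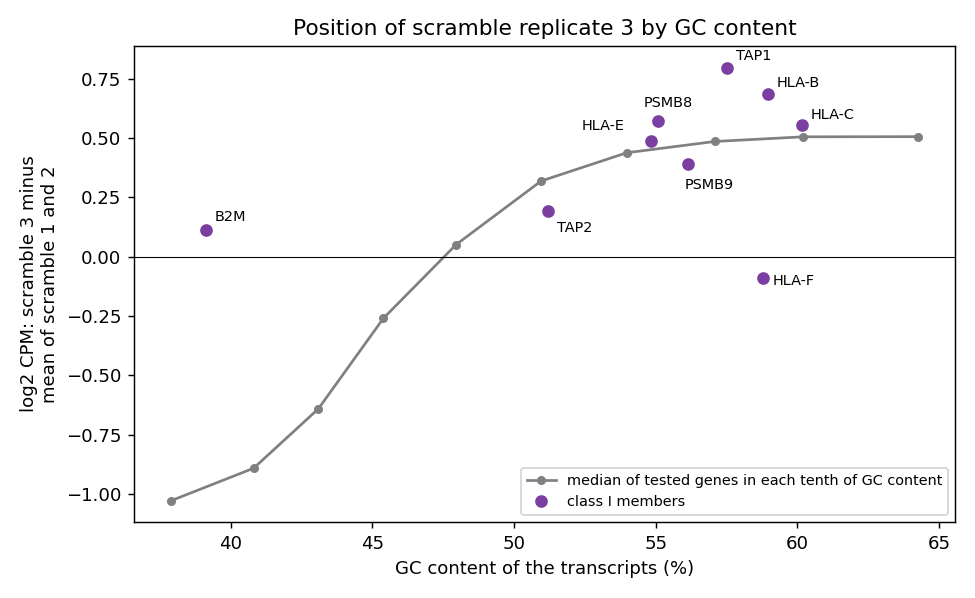
Difference in log2 CPM between scramble replicate 3 and the mean of scramble replicates 1 and 2, against the GC content of the transcripts in percent, for the 9 members in purple and for the medians of 10 GC bins of tested genes in grey. HLA-B, HLA-C, HLA-E, TAP1 and PSMB8 lie at 0.49 to 0.80, at or above the grey line, while HLA-F lies below it and B2M above it.

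Genes that load and trim class I peptides were not called with all 6 libraries. Of 7 listed and tested edgeR called 0, although 2 had an unadjusted p under 0.05, while DESeq2 called 1 and limma-voom 0. The median log2 fold change was 0.00. CALR, the chaperone calreticulin of the loading complex, measured 246, 237 and 351 CPM in the scramble and 417, 440 and 412 CPM in the knockdown libraries, higher without overlap but just outside the threshold (log2 fold change 0.61, adjusted p = 0.0585 by edgeR, and 0.0303 by DESeq2). TAPBP, the tapasin that bridges TAP and the heavy chain, was at 0.00 (95% interval -0.37 to 0.38). CANX, the chaperone calnexin, and ERAP1, which trims peptides in the endoplasmic reticulum, were at -0.14 and -0.19 and had their lowest level of all 6 libraries in scramble replicate 3. Without that library, where 49.5% of all genes were called, 3 of the 7 genes were called higher, among them CALR (0.81) and TAPBP (0.16, adjusted p = 0.0142 by edgeR), and 2, CANX (-0.43) and ERAP1 (-0.44), lower.

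Of 8 other proteasome genes 1 rose and 0 fell, a share near the 11.5% of all genes called. Without scramble replicate 3, 5 rose and 1 fell, where 49.5% of all genes were called. The gene that rose with all 6 libraries was POMP, the chaperone of proteasome assembly. POMP measured 55.9, 50.8 and 36.9 CPM in the scramble and 83.7, 84.7 and 83.0 CPM in the knockdown libraries (log2 fold change 0.81, SE 0.18, adjusted p = 0.0207 by edgeR). Dropping scramble replicate 2 ended the edgeR call (adjusted p = 0.053), as did dropping knockdown replicate 1, 2 or 3 (0.101, 0.108 and 0.102). PSMB10, the remaining immunoproteasome subunit, was at 14.3 ± 3.24 CPM in the scramble and 13.1 ± 0.829 CPM in the knockdown libraries (SD, n = 3), with a log2 fold change of -0.12. Subunits of the PA28 activator were not called with all 6 libraries, at -0.18 for PSME1 and -0.36 for PSME2. When scramble replicate 3 was dropped, PSME1 was at 0.05 and PSME2 was called lower at -0.17 (adjusted p = 0.0205 by edgeR).

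Other class I and class I-like chains moved in both directions. Of 15 listed 12 were tested, and of these 3 rose and 2 fell, against 11.5% of all genes called. The counts were 3 and 3 without scramble replicate 3, where 49.5% of all genes were called. ULBP1, a stress-induced ligand of the natural killer receptor NKG2D, fell from 35.3, 37.4 and 26.5 CPM to 12.6, 16.1 and 17.6 CPM (log2 fold change -1.10, SE 0.20, adjusted p = 0.00781 by edgeR). Some other ligands of that receptor rose. RAET1E went from 2.86 ± 0.72 to 8.84 ± 0.635 CPM (SD, n = 3, log2 fold change 1.62, adjusted p = 0.00194 by edgeR). RAET1G went from 0.942 ± 0.096 to 3.13 ± 0.239 CPM (1.72, adjusted p = 0.0027 by edgeR). MICB went from 3.74 ± 0.288 to 6.42 ± 0.541 CPM (0.78, adjusted p = 0.0284 by edgeR). FCGRT, the heavy chain of the neonatal Fc receptor and a partner of B2M, fell from 9.66, 7.52 and 14.1 CPM to 3.2, 3.2 and 5.17 CPM (-1.43, SE 0.29, adjusted p = 0.0131). These groups did not overlap. MICA, ULBP2 and ULBP3, also ligands of NKG2D, were not called (-0.21, -0.35 and 0.13, adjusted p = 0.608, 0.56 and 0.825 by edgeR). HLA-G was low, at 2.36 ± 0.652 and 1.46 ± 0.496 CPM, and was not called (log2 fold change -0.68, adjusted p = 0.249 by edgeR). RAET1E, RAET1G and ULBP1 belong to a family of related sequences, so the split of their reads may be an estimate. By edgeR the calls of RAET1E and RAET1G held with each library left out. ULBP1 missed the threshold without knockdown replicate 1 (adjusted p = 0.0589 by edgeR), and FCGRT without knockdown replicate 1 or 2 (0.0676 and 0.0711). MICB passed edgeR's test only with all libraries or without scramble replicate 3, at adjusted p-values of 0.087 to 0.138 with any other library left out.

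Genes of class I transcription and interferon signalling had 1 gene higher and 2 lower of 26 tested, which equals the 11.5% of all genes called. The median log2 fold change was -0.13, and it was -0.21 without scramble replicate 3 and -0.05 without scramble replicate 1. NLRC5, the class I coactivator, was at 5.48, 4.64 and 7.46 CPM in the scramble and 4.5, 4.19 and 4.07 CPM in the knockdown libraries, and was not called (-0.46, 95% interval -0.97 to 0.05, adjusted p = 0.248 by edgeR), nor was it without scramble replicate 3 (-0.25, adjusted p = 0.32). NFKB1, a subunit of NF-kappaB, lay just outside the threshold, at 58.4, 61.5 and 83.3 CPM and 43.4, 42.8 and 44.6 CPM (-0.64, adjusted p = 0.0503 by edgeR, and 0.0228 by DESeq2), and was called lower without scramble replicate 3 (-0.46, edgeR adjusted p = 2.09e-06). The transcription factor gene IRF1 was at -0.47 (edgeR adjusted p = 0.0944), and at -0.37 once scramble replicate 3 was dropped (edgeR adjusted p = 0.00024). SOCS3, a feedback inhibitor of cytokine signalling, fell from 32.0, 31.2 and 43.5 CPM to 19.2, 20.2 and 19 CPM (-0.87, adjusted p = 0.0145 by edgeR). The receptor chains for interferon gamma went in opposite directions, IFNGR1 to 0.81 (adjusted p = 0.0474) and IFNGR2 to -0.73 (adjusted p = 0.0463 by edgeR). The call of IFNGR1 was also lost by edgeR without scramble replicate 2 (adjusted p = 0.0733) and with RLE scaling (0.0534). That of IFNGR2 was lost without scramble replicate 1 (adjusted p = 0.0633 by edgeR) and by limma-voom (0.0572). All 3 calls of this list were lost without knockdown replicate 1, 2 or 3, where edgeR called 0 of the 26 genes, with 7, 4 and 5 at an unadjusted p under 0.05. Without scramble replicate 3, 4 genes of this list rose and 13 fell, in a setting in which 49.5% of all genes were called.

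**Figure D5:**
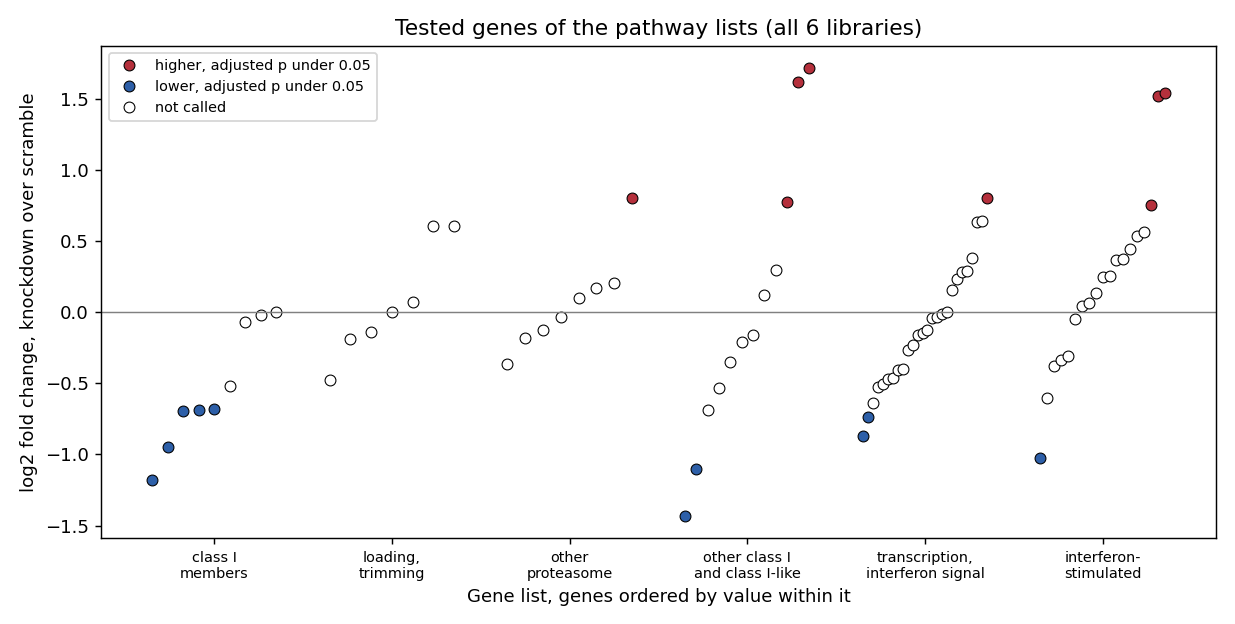
Log2 fold change, knockdown over scramble, of each tested gene of the members and of 5 related lists, with all 6 libraries; red points were called higher and blue points lower by edgeR at an adjusted p under 0.05, and white points were not called. The members have 5 blue and 0 red points, while the class I-like chains have 2 blue and 3 red points and the loading and trimming list has white points throughout.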

How the data were processed

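Polyadenylated RNA of A549 cells was sequenced in 3 scramble and 3 C19orf12 knockdown libraries. The authors deposited RSEM expected counts per gene, which are estimated counts, and FPKM values scaled for length and depth, per the file headers. Transcript length, in bases, is a further column. The submitters' processing notes name RSEM, Bowtie2 and BWA with build hg19. What each tool did, and its version, is not stated in the sources used here. Totals were 10229890 to 10647587 counts per library. Genes not listed in a file were taken as 0 counts there, where 3 counts, or 0.293 CPM, is the limit that counting allows. Of 20824 Entrez IDs 20727 were matched to RefSeq symbols.

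Expected counts were rounded and fitted with edgeR 4.0.16 in R 4.3.3: filterByExpr (minimum count 10, minimum total 15), TMM, glmQLFit and glmQLFTest over 14812 genes. A gene was called at an adjusted p (Benjamini-Hochberg) under 0.05. SE is the fold change over the square root of F, and 95% intervals use the fit's degrees of freedom. The 5 FPKM ratios were tested by exact permutation (scipy 1.17.1). GC content came from GENCODE transcripts matched by RefSeq accession. The procedure was tested on simulated data that held no shifted library like scramble replicate 3, so its effect was not covered there. Alternatives were RLE and upper-quartile scaling, other filters, a replicate block, each library left out, DESeq2 1.42.0, limma-voom (limma 3.58.1), and, added after seeing the data, splines on GC content and on length (5 degrees of freedom each).

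The members and lists were chosen with earlier results of these data known. Named are the 9 members, C19orf12 and genes of the fixed lists, plus the 5 genes most like B2M. PSMB8-AS1 was named after its values were seen.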

Additional observations from a re-analysis of the deposited data

How the results depend on the processing

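All 5 member calls were kept by edgeR with RLE or upper-quartile scaling, without a filter on low counts and with at least 1 CPM in 3 libraries, and DESeq2 and limma-voom called 4 members each. Of all 14812 genes tested, DESeq2 called 1889 and limma-voom 1659. With single libraries left out, calls ranged from 0 to 6 for the members, from 4 to 40 for the pathway lists (13 with all libraries) and from 729 to 7439 for all genes (1708). The upper end of each range is the setting without scramble replicate 3. With the GC and length correction 4858 genes and 28 pathway genes were called, and with scramble replicate 3 left out as well 7328 and 38. PSMB5 ranged from -0.16 to 0.17 with single libraries left out, the latter, a reversal, without scramble replicate 3. Directions of the 5 ratios held in their 9 alternatives each. The cause of these changes was not tested. Depth limits PSMB9, HLA-G and the class II genes, all near or under 4 CPM.

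With the replicate number as a block, 1654 genes, 11 pathway genes and 2 members (HLA-B and PSMB8) were called, and IFNGR2 (adjusted p = 0.0511) and MICB (0.0609) missed edgeR's threshold. For the ratios the block left the differences at -1.11, -0.22, -0.22, -0.25 and 0.70. In the labels, scramble and knockdown libraries share only a number. Deviations of same-numbered libraries from their group means correlated at -0.02 in all 3 pairs, and those of differently numbered libraries at -0.05 to 0.06. Scramble replicate 3 weighs on the deviations of all scramble libraries, so these values cannot decide whether libraries were paired.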

Other observations

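MHC class II genes, which present peptides to CD4 T cells and are induced in epithelial cells by interferon gamma, were low or unlisted. Of 12 listed genes 4 were in no file and 3 had counts enough to be tested: HLA-DMA, HLA-DMB and HLA-DOA, at log2 fold changes of -0.26, -0.49 and 0.04. By edgeR 0 of these were called and 0 had an unadjusted p under 0.05, and DESeq2 and limma-voom called 0.

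Interferon-stimulated genes moved in both directions while the heavy chains fell. Of 30 listed 19 were tested, and of these 3 rose and 1 fell, where 11.5% of all genes were called, with a median log2 fold change of 0.25. Without scramble replicate 3 the median was 0.12, and 4 of 20 rose and 2 fell, where 49.5% of all genes were called. With knockdown replicate 1, 2 or 3 left out 2 rose and 0 fell. OAS1, which senses double-stranded RNA, rose from 17.2, 17.2 and 25.6 CPM to 57.3, 57.2 and 57.7 CPM (1.52, adjusted p = 0.00123 by edgeR), and the related gene OAS3 rose (0.76, adjusted p = 0.0387). ISG15, a ubiquitin-like modifier, rose from 1.67, 2.69 and 2.52 CPM to 6.9, 6.29 and 6.95 CPM (1.55, adjusted p = 0.0027 by edgeR). The exonuclease gene ISG20 fell from 24.1, 27.2 and 36.6 CPM to 13.9, 14.2 and 15 CPM (-1.03, adjusted p = 0.00907 by edgeR). The calls of ISG15 and OAS1 held with each library left out. The call of ISG20 was lost without knockdown replicate 1, 2 or 3 (adjusted p = 0.0619, 0.0614 and 0.0529), and that of OAS3 with upper-quartile scaling (0.0531) and without scramble replicate 1 or 2 (0.122 and 0.125) or knockdown replicate 1, 2 or 3 (0.157, 0.141 and 0.147, all by edgeR).

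Among the 4509 tested genes whose mean CPM was 50 or more, the 5 whose log2 CPM followed B2M most closely over the 6 libraries were PRMT2 (Pearson r = 0.96), MYL12A (0.91), TMEM165 (0.91), GLRX3 (0.90) and PTMA (0.85). The libraries share depth and the deviation of scramble replicate 3, and the values are given as a description.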
